A study of Mus musculus with 3 samples.

Results

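The 5 genes described here encode parts of the B cell receptor and were followed in naive CD4 T cells, which do not make that receptor. They are the heavy chain constant regions Ighm and Ighd, the light chain constant region Igkc, and the receptor partner genes Cd79a and Cd79b. These 5 of the 55536 genes in the deposited gene tables were picked by name, with their levels (TPM, expected counts and isoform shares) in these libraries already known, so the levels are given as a description with no test. The RNA, selected for polyA tails, was from naive, thymus-derived CD4 αβ T primary cells. The donor was a single B6.SJL-Ptprca Pepcb/BoyJ adult (1 male, 5 months old), from a strain that carries the CD45.1 form of Ptprc. It was sequenced in 3 technical libraries, numbered as in the labels, with 14800852, 18170786 and 17448768 expected counts on genes in libraries 1, 2 and 3. There is 1 group and 1 animal, so every SD is the spread between technical libraries and no condition can be compared. The purification of the cells was not described in the labels.

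A B cell assembles variable (V), diversity (D) and joining (J) segments of the heavy chain locus upstream of the constant regions, and alternative processing of the long transcript then gives μ chains (Ighm) or δ chains (Ighd). A light chain, in the mouse mostly κ (Igkc), completes the antibody, and the membrane form signals through the heterodimer of CD79A and CD79B. The μ constant region can also be transcribed from a locus that has not been rearranged, from start sites near the intronic enhancer, and such germline transcripts carry no V segment and have been described in T cells as well as B cells. The annotation behind the tables has no entry for the first exon of germline μ transcripts, so these and rearranged transcripts cannot be told apart from Ighm counts alone.

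Levels are in TPM, the deposited abundance scaled by length. Expected counts are estimated reads per gene. Intervals are 95% and cover counting error only. So does the set limit of 3 counts, used as what a count of 0 allows. It is not an end of those intervals, since the exact Poisson interval of 0 counts reaches 3.69. On 1 kilobase of effective length 3 counts are 0.349, 0.269 and 0.294 TPM in libraries 1, 2 and 3. Detected means at least 1 TPM in every library. Shares and medians of all genes are over all 55536 annotated genes. Those include noncoding genes, pseudogenes and short gene segments, not protein-coding genes alone.

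Ighm (ENSMUSG00000076617.9, chromosome 12, 113418558 to 113422730, minus strand, GRCm38, GENCODE M21) was abundant, whereas its partner genes were scarce, with means from 0.277 TPM (Cd79b) to 2.06 TPM (Cd79a). Ighm had 394, 310 and 416 TPM in libraries 1, 2 and 3, a mean of 374 ± 56.3 (SD, n = 3). Those levels rest on 5188, 5311 and 6542 expected counts, or 17041 in all. The authors' posterior mean TPM of Ighm was lower, at 334, 272 and 362 in libraries 1, 2 and 3. Its deposited bounds of 325 to 343, 265 to 279 and 352 to 370 lie below the TPM given here. Every library was far above the 1 TPM line, and library 2 was the lowest. Ighm ranked 408 by mean TPM among all genes. Above 100 TPM in every library lay 3.26% of all genes. The genes closest to Ighm over the 3 libraries, by distance in log2(TPM + 0.1), were Mdh2, Pja1, Igtp and Ap2m1, at distances of 0.03, 0.06, 0.06 and 0.07.

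Ighd (ENSMUSG00000104213.5, chromosome 12, 113406604 to 113416324) lies downstream of Ighm on the same strand, 2233 bases from its end. Ighd had 1.65, 0.90 and 1.23 TPM in libraries 1, 2 and 3, a mean of 1.26 ± 0.376 (SD, n = 3). It had 18, 15 and 22 expected counts, and the total of 55 has an exact Poisson interval of 41.4 to 71.6. In each library Ighd was above the limit of 3 counts and far below Ighm.

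Igkc (ENSMUSG00000076609.2, chromosome 6, 70726435 to 70726966) had 1.45, 0.56 and 2.03 TPM, a mean of 1.35 ± 0.740 (SD, n = 3). Those values are 6, 3 and 10 expected counts, and the total of 19 has an exact Poisson interval of 11.4 to 29.7. The library 2 value is at the limit of 3 counts, and the per-library intervals of 0.531 to 3.15, 0.115 to 1.63 and 0.973 to 3.73 TPM overlap one another. Igkc lies within the noncoding gene Gm30211 on the same strand, which had 5 counts in all. No annotated gene overlaps any of the 5 genes on the opposite strand.

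Cd79a (ENSMUSG00000003379.7, chromosome 7, 24897381 to 24902197) encodes the Igα chain of the signalling pair. Cd79a had 1.49, 2.74 and 1.95 TPM in libraries 1, 2 and 3, a mean of 2.06 ± 0.632 (SD, n = 3), from 18, 43 and 28 expected counts. Library 2 was the highest for Cd79a and the lowest for the other 4 genes. Cd79b (ENSMUSG00000040592.11, chromosome 11, 106311341 to 106314762), which encodes the Igβ chain, had 0.41, 0.16 and 0.26 TPM, a mean of 0.277 ± 0.126 (SD, n = 3). Its 4, 2 and 3 counts add up to 9, with an exact Poisson interval of 4.12 to 17.1.

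**Figure D1:**
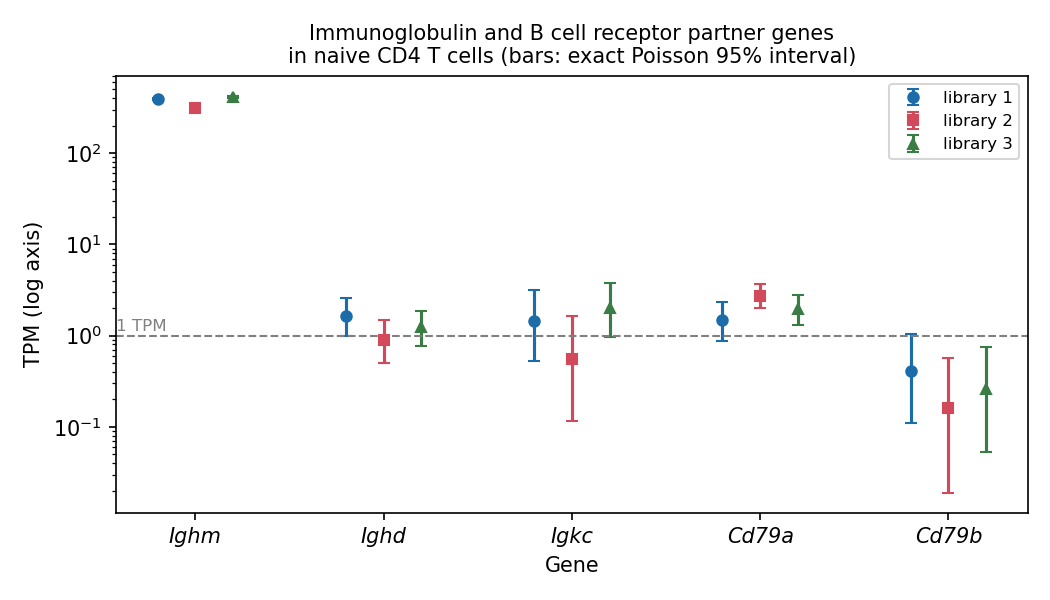
TPM of the 5 genes (log axis) in technical libraries 1, 2 and 3, with exact Poisson 95% intervals of the counts as bars and the 1 TPM line dashed. Ighm sits between 310 and 416 TPM, while the other genes lie between 0.16 and 2.74 TPM.

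Of the 5 genes, 2 were detected, Ighm and Cd79a, where 21.4% of all genes were. Without library 2 the number was 4, since Ighd and Igkc fell under 1 TPM in that library only. Because the genes were chosen with their levels known, nothing is read from this count. The authors' deposited posterior SD of the gene's count, which measures how far reads could be placed on other genes, was 0 in each library for Ighm, Ighd, Igkc and Cd79b. For Cd79a it was 0.42, 1.19 and 0.36 reads.

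The question was then whether Ighm reads come with reads of a δ chain, a light chain or the signalling partners. For every 1000 Ighm counts there were 3.23 Ighd counts (exact Poisson interval 2.43 to 4.20), 1.11 Igkc counts (0.671 to 1.74), 5.22 Cd79a counts (4.19 to 6.43) and 0.528 Cd79b counts (0.241 to 1.00). Scaled by effective length and pooled over libraries, Ighm exceeded Ighd 302-fold, with an exact Clopper-Pearson interval of 232 to 401. The per-library ratios were 239, 343 and 339. For Igkc the pooled ratio was 282 (180 to 468), with 273, 556 and 205 in libraries 1, 2 and 3. In no library was Ighm less than 205-fold above either of these chains.

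Ighm exceeded Cd79a by a pooled ratio of 175 (142 to 219). Its per-library ratios of 265, 113 and 214 spread more widely than that interval, with library 2 the lowest. Against Cd79b the ratio was 1412 (744 to 3088), and its wide interval reflects the 9 counts of Cd79b. The scarcest partner of Ighm by this measure was Cd79b, with 970, 1979 and 1624 in the 3 libraries.

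**Figure D2:**
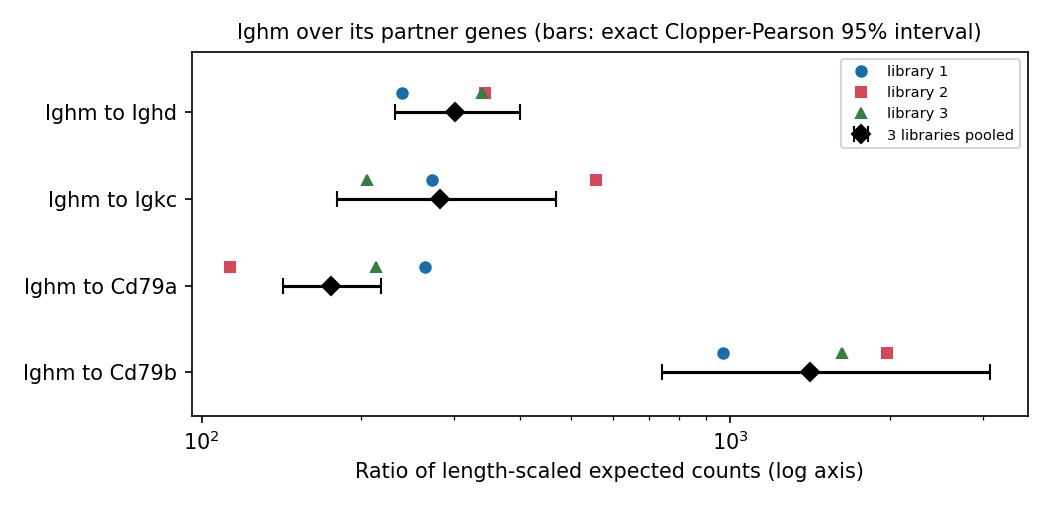
Ratio of length-scaled expected counts of Ighm to each partner gene (log axis), pooled over 3 libraries with exact Clopper-Pearson 95% intervals (diamonds) and in each library (coloured symbols). All ratios are above 100, and the interval for Cd79b, from 744 to 3088, lies above the other intervals.

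Among the 4 low genes the order by mean TPM was Cd79a, Igkc, Ighd and Cd79b. The ratio of Cd79a to Igkc was 1.61 (exact Clopper-Pearson interval 0.971 to 2.79) and that of Igkc to Ighd was 1.07 (0.600 to 1.83). On pooled counts these neighbours thus did not differ beyond counting error. In libraries 1, 2 and 3 Cd79a to Igkc was 1.03, 4.92 and 0.961, and Igkc to Ighd was 0.877, 0.618 and 1.65. Ighd exceeded Cd79b by 4.68 (2.29 to 10.8). The Cd79 pair, whose proteins join as a heterodimer, was unequal: Cd79a exceeded Cd79b by 8.05 (4.05 to 18.2), with 3.66, 17.5 and 7.60 in libraries 1, 2 and 3.

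Ighm has 2 annotated transcripts, which differ at their 3′ ends. Ighm-201, with 4 exons, reads through the end of the last common exon into the tail of secreted IgM. Ighm-202, with 6 exons, splices from that point to a pair of exons that encode the membrane anchor. Both sequences are shown from the last 24 common bases (lower case) to the stop codon, from the GENCODE M21 transcripts on the minus strand, with the bases of that form alone in capitals. The first spans chr12:113420867-113420952, and the second spans chr12:113418826-113420952 with introns removed.
Ighm-201 (secreted): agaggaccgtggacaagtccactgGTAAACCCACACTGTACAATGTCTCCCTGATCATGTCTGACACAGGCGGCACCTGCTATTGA
Ighm-202 (membrane): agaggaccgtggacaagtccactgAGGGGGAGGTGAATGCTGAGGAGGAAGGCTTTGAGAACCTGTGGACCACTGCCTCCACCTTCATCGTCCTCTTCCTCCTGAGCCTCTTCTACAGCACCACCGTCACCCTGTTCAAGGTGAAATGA

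The forms share 1305 bases, which are 87.4% of Ighm-201 and 76.9% of Ighm-202, so their split rests on reads in the 188 and 393 bases that only one of them holds. Ighm-201 had 224, 168 and 223 TPM in libraries 1, 2 and 3, and Ighm-202 had 170, 142 and 193 TPM. The secreted form took 56.88%, 54.16% and 53.54% of Ighm TPM, a mean of 54.9% ± 1.78 (SD, n = 3), and the membrane form the remaining 43.12%, 45.84% and 46.46%. In all libraries both forms were present at close to equal levels, with the secreted one slightly the higher. The deposited posterior SD of each form's count was 79.9, 77.5 and 88.4 reads, against 2781, 2701 and 3286 expected counts for Ighm-201 and 2407, 2610 and 3256 for Ighm-202. The authors' deposited credibility bounds, which go with the posterior mean TPM and whose level is not stated, did not overlap between the forms. In library 1 they ran from 177 to 203 for Ighm-201 and from 133 to 155 for Ighm-202.

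**Figure D3:**
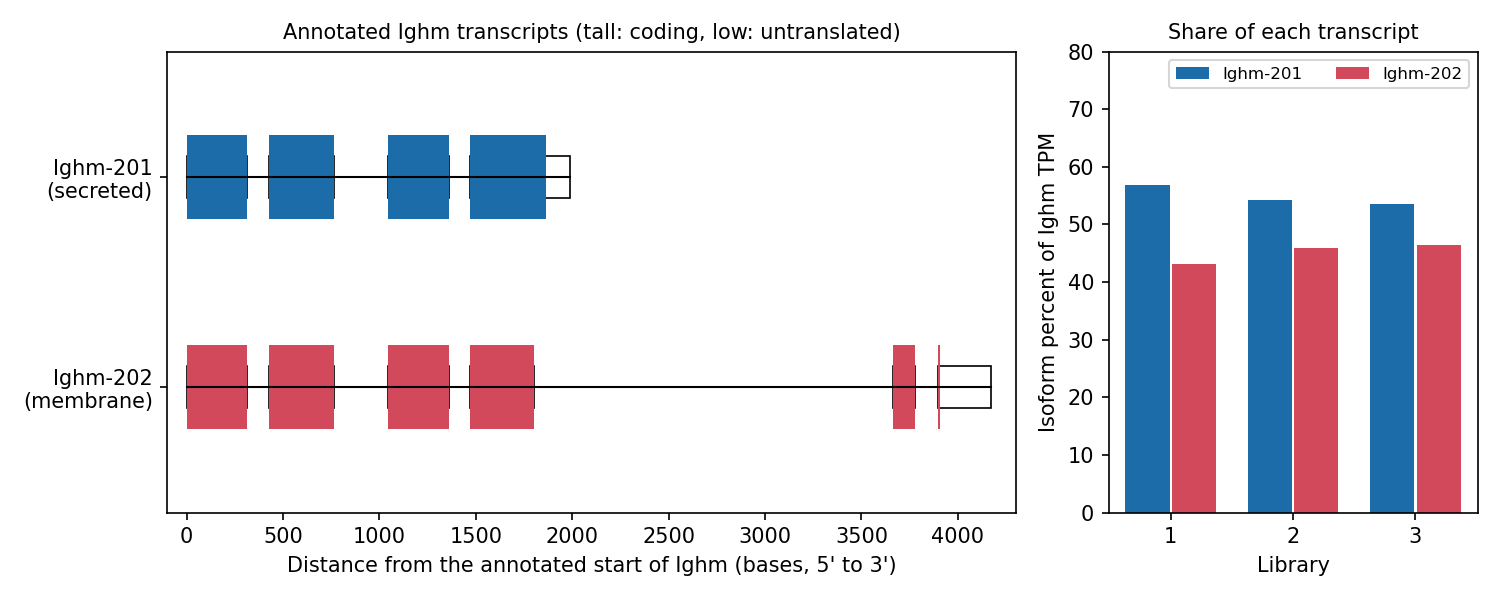
Left, the annotated Ighm transcripts by distance in bases from the gene's start (tall boxes coding, low boxes untranslated). Right, the isoform percent of each in libraries 1, 2 and 3, where Ighm-201 took 53.54% to 56.88%.

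The low genes did not have the depth for such a split. Ighd-202, with 5 exons, was given 12.83, 13 and 22 counts and Ighd-201, with 4 exons, 5.17, 2 and 0. The 9 Cd79b counts were all given to Cd79b-202 in the deposited maximum-likelihood estimate, but in the posterior mean estimate that transcript held 63.7%, 58.6% and 62.7%. Cd79a and Igkc have 1 annotated transcript each.

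Heavy chain V segments had few counts beside Ighm. The 115 annotated heavy chain V genes together had 3, 10 and 15 expected counts in libraries 1, 2 and 3, and the total of 28 has an exact Poisson interval of 18.6 to 40.5. Those counts fell on 18 genes, led by Ighv1-36 and Ighv14-3 with 4 counts each. No V gene of the heavy chain reached 1 TPM in every library.

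The same libraries gave a measure of how V and constant regions compare in receptors known to be rearranged, the T cell receptor chains. This comparison was added after the values were seen. Summed heavy V TPM were 0.297%, 0.994% and 1.18% of Ighm TPM, a mean of 0.823% ± 0.464 (SD, n = 3). For the α chain, summed Trav TPM were 76.9%, 75.6% and 74.1% of Trac, and for the β chain summed Trbv TPM were 51.9%, 49.01% and 50.3% of Trbc1 and Trbc2 together. Per 1000 constant region counts there were 1.64 V counts for the μ chain (exact Poisson interval 1.09 to 2.37), against 304 (299 to 308) for α and 264 (260 to 268) for β. The μ chain value was below that of both T cell receptor chains in every library, with no overlap of the intervals. In a table of whole-number counts on the older GENCODE M4 annotation the corresponding numbers were 4.10 for μ, 1597 for α and 3802 for β. The μ chain was again the lowest, whereas α was above β in the gene tables and below it in the older table.

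**Figure D4:**
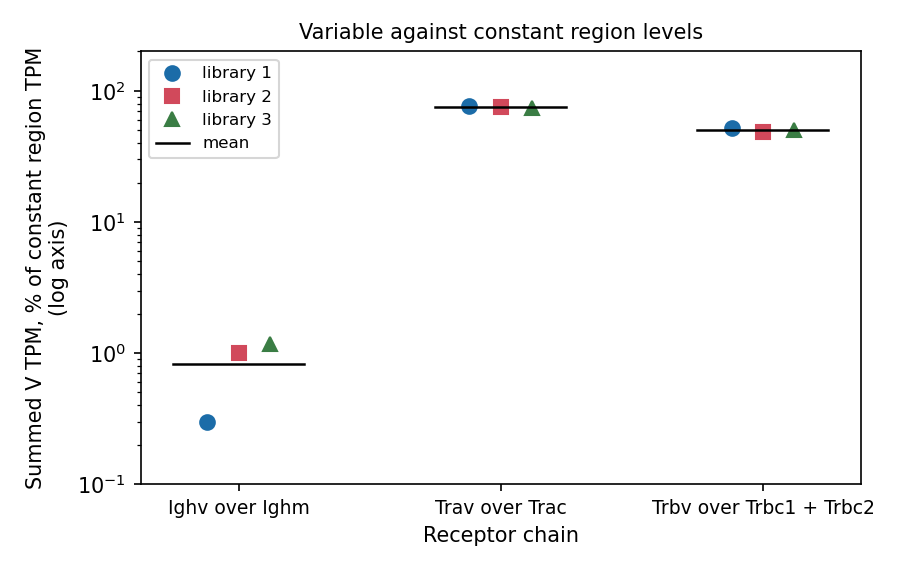
Summed TPM of V genes as a percentage of constant region TPM (log axis) for the immunoglobulin heavy chain and the T cell receptor α and β chains, in libraries 1, 2 and 3 with the mean as a line. The heavy chain points lie between 0.297% and 1.18%, and the T cell receptor points between 49.01% and 76.9%.

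Light chain segments also had few counts. The 104 κ V genes had 12, 20 and 14 expected counts (46 in all, exact Poisson interval 33.7 to 61.4), spread over 25 genes and led by Igkv4-92 with 8 counts and Igkv4-59 with 5. The λ locus had no V counts and 4 constant region counts, 3 on Iglc1 and 1 on Iglc2, with 0 on Iglc3 and Iglc4. Immunoglobulin pseudogenes added 18 counts in all. Ighv5-7, Ighv3-2 and Igkv13-73-1 had 1 each, Igkv4-75 and AC148174.4 had 2 each.

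The constant regions of switched antibody classes were at or below the limit of 3 counts in every library. Igha, which encodes the α chain of IgA, had 0, 0 and 2 counts, and Ighg2b and Ighg2c had 1.5 expected counts each in library 3 alone. Ighg2b and Ighg2c are closely related copies, so which of them those reads came from is uncertain. Ighg1, Ighg3 and Ighe had 0 in every library. Over all 432 annotated immunoglobulin genes, Ighm held 17041 of 17216 counts, and the other 431 genes held 175 together (exact Poisson interval 150 to 203).

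Around Ighm, 10 other annotated genes lie within 20 kb. Apart from Ighd they are 4 short miRNA entries with 6 counts in all (Gm25747 3, Gm22175 2, and 1 and 0 on the entries named Gm24022), the 4 heavy chain J segments and the D segment Ighd4-1. The outermost J segments are shown because a rearranged heavy chain transcript carries a J segment next to the constant region. They are given 5′ to 3′ from the GENCODE M21 transcripts on the minus strand of chromosome 12, in lower case throughout.
Ighj1 (chr12:113429781-113429833): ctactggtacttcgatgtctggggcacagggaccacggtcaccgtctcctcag
Ighj4 (chr12:113428514-113428567): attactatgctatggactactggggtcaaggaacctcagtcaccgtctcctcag

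With 53 and 54 bases these entries are hardly longer than the 49 bases by which length exceeds effective length in the gene tables, which leaves effective lengths of 4 and 5. All 4 J segments and Ighd4-1 have 0 expected counts there, but hardly any read could be assigned to entries this short. In the older count table Ighj1 had 7, 13 and 4 counts, whereas Ighj2, Ighj3 and Ighj4 had 3, 3 and 2 counts in all.

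In the older table, with 5160325, 5816158 and 5703629 counts in libraries 1, 2 and 3, the 5 genes kept their pattern of 1 abundant gene and 4 scarce ones. Ighm had 2261, 2297 and 2515 counts, Ighd 14, 10 and 10, Igkc 3, 2 and 6, Cd79a 22, 18 and 17, and Cd79b 1, 1 and 0. Ighm thus stood above each partner in every library of that table as well.

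Other markers of B cells were mostly near 0. The defining genes of the labelled cell type were abundant, and all 8 of the T cell receptor complex list were detected, with 2475 ± 249 TPM for Trac, 2415 ± 53.9 for Trbc2, 1217 ± 37.2 for Trbc1 and 761 ± 28.8 for Cd3e. Cd4 had 439, 442 and 451 TPM. On the length-scaled counts Ighm stood below Cd3e, with a log2 ratio of -1.04, and below Trac, with -2.74. Expected counts with no length correction kept the sign, at -0.969 and -1.76. The older counts, also with no length correction, turned the sign of both, to 1.04 and 1.08. Whether Ighm stands above or below Cd3e and Trac therefore depends on the table.

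Of 18 B cell markers 2 were detected, or 11.1%, beside 21.4% of all genes, and 9 had at most 3 counts in each library. The share of all genes under that cutoff was not computed, so nothing particular to B cell markers is read from it. Of the markers that define B cells, Ms4a1 (CD20) had 10 counts in all and the lineage factor gene Pax5 had 2. The 2 detected members were Cd72, an inhibitory co-receptor, with 57.3, 48.1 and 60.4 TPM, and Pou2af1, a coactivator of octamer-binding factors, with 4.69, 6.35 and 6.52 TPM. Next in order were the scaffold gene Bank1 with 0.83, 0.35 and 1.07 TPM and the complement receptor gene Cr2 with 0.18, 0.40 and 0.32 TPM. The list summed to 64.1, 57.0 and 69.9 TPM in libraries 1, 2 and 3, most of it Cd72. Its median gene had 0.127 TPM beside 0.0333 for all genes. The list holds protein-coding genes only, so these medians are not over like sets. In bulk RNA fewer cells of a type and less RNA per cell cannot be told apart, and the part of B cells in the Ighm counts was not tested.

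Of 16 genes that signal with or downstream of the B cell receptor 4 were detected, or 25%, a share near the 21.4% of all genes. They were the protein kinase C gene Prkcb at 144 ± 16.9 TPM, Cd72 at 55.3 ± 6.38, the adaptor gene Dapp1 at 54.3 ± 4.18 and the tetraspanin gene Cd81 at 45.6 ± 6.87 (SD, n = 3). Syk, the kinase that binds the phosphorylated CD79 chains, had 2 counts in each library. Btk and Blnk, which act after it, had 14 and 3 counts in all. The list median was 0.172 TPM.

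Of the pre-B receptor and recombination list 1 of 6 was detected, or 16.7%, a share near that of all genes. It was Dntt (terminal transferase), at 7.83 ± 0.890 TPM. Vpreb1 and Igll1, the surrogate light chain genes, had 5 counts each, and the recombinase gene Rag1 had 3. Plasma cell genes reached detection in 3 of 8 cases, or 37.5%, beside 21.4% of all genes. The detected ones were Xbp1 at 229 ± 34.2 TPM, Irf4 at 8.30 ± 1.44 and Prdm1 at 4.79 ± 0.121, all regulators that T cells also use. Derl3 followed at 1.07 ± 0.327 TPM. The plasma cell genes Jchain and Mzb1 had 6 and 1 counts in all.

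MHC class II genes, which B cells use to present antigen, were detected in 4 of 10 cases, or 40%, beside 21.4% of all genes. They were H2-Ob at 86.4 ± 3.93 TPM, H2-DMa at 30.1 ± 3.75, the invariant chain gene Cd74 at 10.2 ± 2.10 and H2-Oa at 4.96 ± 0.659, while the antigen-presenting chains H2-Aa and H2-Ab1 had 14 and 37 counts in all.

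The factors known to act at the intronic heavy chain enhancer, the element next to which germline μ transcription starts, were detected in 10 of 11 cases. That is 90.9%, beside 21.4% of all genes, and whether they bear on Ighm in these cells was not tested. Ets1 had 1633 ± 165 TPM, the E protein genes Tcf3 and Tcf12 had 84.7 ± 8.01 and 56.1 ± 2.02, and Runx1 had 75.6 ± 3.60 (SD, n = 3). The lowest detected members were Pou2f2, Tcf4 and Pou2af1, with means of 6.93, 5.88 and 5.85 TPM. The exception was Spi1, which encodes PU.1, with 1 count in all. The median of the list was 31.0 TPM.

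Markers of other cells that could be present were also read against the 21.4% of all genes detected. Plasmacytoid dendritic cell genes were detected in 3 of 7 cases, with Bst2 at 60.1 ± 2.55 TPM, Pacsin1 at 49.97 ± 4.57 and Tcf4 at 5.88 ± 0.0802, but their defining gene Siglech had 2 counts in all and Ccr9 had 1.03 ± 0.256 TPM. The myeloid list had 2 of 8 detected, or 25%, a share near that of all genes. They were Itgam at 1.63 ± 0.0651 and Fcgr3 at 1.41 ± 0.409, followed by Cd68 at 1.01 ± 0.682 and Tyrobp at 0.493 ± 0.565. The other 4 had at most 3 counts in each library. Lyz2, Fcer1g, Csf1r and Adgre1 had 1, 2, 2.34 and 3 counts in all. The CD8 and natural killer list had 4 of 8, Cd8b1 at 17.0 ± 0.235, Klrd1 at 12.1 ± 2.83, Nkg7 at 2.60 ± 0.101 and Eomes at 2.49 ± 0.315, while Cd8a had 3 counts in each library.

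**Figure D5:**
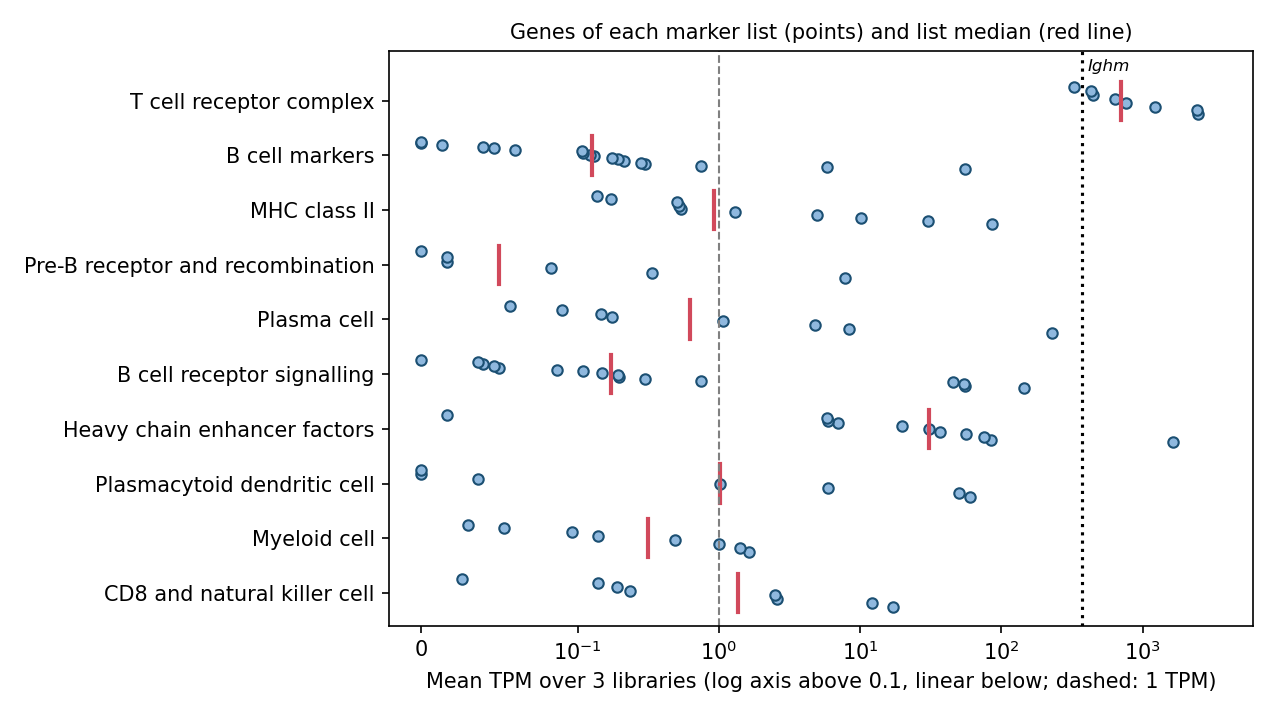
Mean TPM of each gene of the marker lists (points, log axis above 0.1 and linear below), with list medians in red, the 1 TPM line dashed and the Ighm level dotted. Most B cell markers lie below 1 TPM, while the 8 genes of the T cell receptor complex list lie between 328 and 2475 TPM.

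The technical libraries were compared by a chi-square test of homogeneity on rounded expected counts, given TMM-scaled library sizes. Benjamini-Hochberg adjustment was over 13090 genes, of which 40.0% were called at an adjusted p under 0.05. Ighm was among them, with an adjusted p of 2.03e-31. Its counts scaled by those library sizes were 5838, 4999 and 6236.5 in libraries 1, 2 and 3, so the highest exceeded the lowest 1.25-fold. Library 2 was the low one. In that library protein-coding and receptor genes held 86.6% of TPM, against 89.7% and 89.9% in libraries 1 and 3. Without library 2 the adjusted p of Ighm was 0.00447 and the number of genes called fell to 1903 of 12917.

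For Cd79a, with scaled counts of 20.3, 40.5 and 26.7, the adjusted p of the chi-square test was 0.0663. It was 0.174 without library 1, 0.638 without library 2 and 0.0449 without library 3, so the call depends on which libraries enter. Ighd had 0.572, so its libraries did not differ beyond counting noise by this test. Igkc and Cd79b had fewer than 10 counts on average and were not tested.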

How the data were processed

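PolyA-selected RNA-seq of 3 technical libraries from 1 mouse was used. Per the labels, RNA was sheared (Covaris) with a size range of 100 to 300. Text deposited beside the tables names mm10 as assembly, with GENCODE M21 as annotation and M4 for the older table of 22457 genes. Which aligner, counting tool and strand setting were used is not given in the sources.

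The authors deposited expected counts and TPM per gene and transcript, as maximum-likelihood and posterior mean estimates. Each transcript's percent of its gene's TPM (isoform percent) was deposited too. Posterior SD and credibility bounds, taken here as scores, were also deposited by the authors. The older table holds whole-number counts, as deposited.

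Entries naming no gene (0.247%, 0.200% and 0.325% of expected counts) entered neither library sizes nor tests. Symbols and positions came from GENCODE M21. Expected counts were rounded for tests and intervals. TMM factors from edgeR 4.0.16 (R 4.3.3) set the library sizes, and only genes averaging 10 or more counts entered. Homogeneity was tested by chi-square (scipy 1.17.1) with Benjamini-Hochberg adjustment, a procedure tested on simulated data. The simulated counts held only counting noise and set changes, so they do not cover further spread between libraries, where 40.0% of genes were called. Ratios were taken of counts divided by effective length and summed over libraries. The text names all constant regions, the 2 highest segments of each other class, genes within 20 kb of Ighm, and the 4 highest members of each of 10 lists. Alternatives included DESeq2 size factors (1.42.0). The genes and lists were chosen with earlier results of these data known, and genes outside the naming rule were picked after their values were seen. The replicates are technical, so p-values measure only the spread between these libraries. A marker that the naming rule covers is not reported here.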

Additional observations from a re-analysis of the deposited data

Results flagged for a closer look

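Ighj1, the J segment of the heavy chain locus farthest from Ighm, had 7, 13 and 4 counts in libraries 1, 2 and 3 of the older count table, which the ratios above do not use. The total of 24 has an exact Poisson interval of 15.4 to 35.7. Each library lies above the limit of 3 counts, and there are no control samples to set beside it. Within that table the 4 heavy chain J segments had 32 counts, beside 7073 for Ighm. The 13 T cell receptor α and β J entries had 3816 counts, beside 3354 for Trac and 3502 for Trbc1 and Trbc2. The other 3 heavy chain J segments had 8 counts together in that table, and heavy chain D segments had 0. In the M21 annotation the D segments are only 10 to 29 bases long, so nothing is read from their 0. The extent of the Ighj1 entry in the older annotation was not used here.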

How the results depend on the processing

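The abundance of Ighm over each partner kept its direction under every alternative run. On the log2 scale the ratios were 8.24 for Ighd, 8.14 for Igkc, 7.45 for Cd79a and 10.46 for Cd79b. Older counts with no length correction moved them to 7.70 for Ighd, 9.33 for Igkc and 11.79 for Cd79b. A pseudocount of 1 on TPM, in place of pooled counts, gave 7.37, 7.36 and 8.19 for the same 3 genes, by its construction low for scarce genes. Expected counts with no length correction gave 9.81 for Igkc, whose effective length of 483 is the shortest. With posterior mean TPM 18019 of 55536 genes were detected, beside 11902. The 21.4% share of all genes would then be higher, and the shares of the marker lists are not given for that estimate. Leaving out 1 library each gave 1903 to 4875 genes called different between libraries, beside 5238. A pair of ratios reversed on the older counts, an alternative added after seeing the data, Ighm to Cd3e to 1.04 and Ighm to Trac to 1.08, and the cause was not tested. Of the alternatives of main results, 9 moved the value and 84 stayed within the spread between libraries or, for counts of genes, within 1.5 times. Depth limits Igkc and Cd79b, with 19 and 9 counts. No paired analysis was possible because there is 1 group.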
